A study of Rattus norvegicus with 16 samples.

Results

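Heat shock proteins and DnaJ proteins are molecular chaperones, proteins that bind unfolded polypeptides and help them fold, cross membranes or be handed on for degradation. The genes described here are the protein-coding genes of a rat kidney cortex count table whose symbols begin with Hspa to Hsph or with Dnaja, Dnajb or Dnajc followed by a digit (or, for Hsp genes, a letter), and that held at least 50 counts summed over the 16 libraries. Of 70 genes with such names, 66 reached that minimum, out of 32623 genes in the table. The 4 that did not were Dnajb13 with 39 counts, Hspb9 with 2 counts, and Dnajb8 and Dnajc5g with 0 counts. By the textbook place of their products, 34 of the 66 act in the cytosol or nucleus, 12 in the endoplasmic reticulum (ER), 10 in the mitochondrion and 9 elsewhere, and Dnajb3 was not assigned. The name rule does not take in the Hsp90 genes, which are given below as a separate list, and it takes in a few genes that share the name but are not chaperones, such as Hspb11, also called Ift25.

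The libraries hold kidney cortex RNA of rats in 4 groups, the young and the old of each sex, with 4 libraries per group. All 16 libraries carry the genotype label Homo, which the labels do not explain, and are labelled as untreated. Age is given only as young or old, and the labels used here give no strain. Diabetic kidney disease is in the series title, yet none of the libraries is labelled as diabetic. The labels do not state that each library is a different animal, so the p-values measure only how far these samples spread, and that spread may be technical. The sample identifiers begin with DS in all young libraries, in old female replicates 3 and 4 and in old male replicate 4, and with OP in the other old libraries, so age is partly tied to that prefix.

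Total counts per library ran from 10827485 to 35957516. The 12 proximal tubule markers summed to 16257 to 22177 CPM (counts scaled to a common library total with edgeR's TMM factors) in young males and to 8830 to 9798 CPM in old males, and the 12 macrophage markers in the table to 193 to 227 CPM and 530.2 to 919 CPM. The mean log2 CPM of 12 inner medulla genes was 4.26 to 5.15 in young females and 2.19 to 3.12 in young males. The tissue labelled cortex thus held inner medulla transcripts in unequal amounts. The urothelial markers Upk3a and Krt20 were at 0 in all old males, and also in some libraries of every other group. A further urothelial marker, Upk1b, was at 0.0976 to 0.247 CPM in old males. Of the 34 cytosolic or nuclear genes, young male replicate 4 was the highest of its group in 19 and old male replicate 3 in 17. Both held in 9 genes, among them Hspa8, Hsph1, Dnajb1, Dnaja1, Hspb1 and Hspa1b. Old male replicate 4 stood apart in nephron segment markers, with a sum of 8 thick limb and distal tubule markers of 2483 CPM against 6040.2 to 7368 CPM in the other old males. In bulk tissue, fewer cells of a type and less RNA per cell cannot be told apart.

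Hsp70 proteins (Hspa genes) bind and release polypeptides in a cycle driven by ATP. DnaJ proteins carry a J domain that stimulates this ATPase and brings clients to a particular Hsp70, and exchange factors such as Hsph1 or the BAG proteins restart the cycle. Each compartment has its own machine: Hspa8 in the cytosol, Hspa5 (BiP) in the ER, and Hspa9 (mortalin) in the mitochondrial matrix, where the chaperonin Hspd1 (Hsp60) and its lid Hspe1 (Hsp10) also fold imported proteins. Heat and other protein-damaging stress induce many of the cytosolic genes through heat shock factor 1, which binds repeats of GAA in alternating orientation. ER stress induces Hspa5 and several of its partners through ER stress elements.

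The promoters of the genes on which the results turn are shown because 2 of the genes that moved together, Hspd1 and Hspe1, share theirs. RefSeq (build GRCr8) gave 52 of the 66 genes a window from 250 bases before to 50 bases after the start, and 14 genes had no entry. The heat shock element searched was GAA, 2 bases of any kind (NN), TTC, NN and GAA in a row, on both strands, where matches may overlap each other. It occurred in 5 of the 52 windows (Hspa8, Hspd1, Hspe1, Hsph1 and Dnaja1) and in 202 of all 27457 windows of the same length (0.736%). The ER stress element, CCAAT and CCACG with 9 bases of any kind between them, on both strands, occurred in 2 of the 52 (Hspa5 and Dnajc3) and in 21 of all windows (0.0765%). A match describes the letters in the window and does not show that a factor binds there. The sequences are written 5′ to 3′ on the strand of the gene, and capitals mark the fixed bases of a match.
Hspe1 (chr9:64084077-64084376, plus strand): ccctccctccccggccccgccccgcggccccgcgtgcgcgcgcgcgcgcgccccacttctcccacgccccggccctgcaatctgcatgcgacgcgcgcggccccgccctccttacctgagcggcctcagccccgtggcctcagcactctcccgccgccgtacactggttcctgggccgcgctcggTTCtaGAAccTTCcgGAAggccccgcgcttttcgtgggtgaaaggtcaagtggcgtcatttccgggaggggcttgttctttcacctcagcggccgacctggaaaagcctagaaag
Hspa8 (chr8:50080264-50080563, plus strand): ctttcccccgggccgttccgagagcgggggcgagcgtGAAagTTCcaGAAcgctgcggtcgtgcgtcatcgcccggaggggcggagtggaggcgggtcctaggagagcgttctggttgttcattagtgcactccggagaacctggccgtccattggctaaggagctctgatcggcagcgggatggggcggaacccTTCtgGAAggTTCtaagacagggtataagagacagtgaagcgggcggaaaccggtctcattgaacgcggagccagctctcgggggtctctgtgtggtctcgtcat
Hspa5 (chr3:38452766-38453065, plus strand): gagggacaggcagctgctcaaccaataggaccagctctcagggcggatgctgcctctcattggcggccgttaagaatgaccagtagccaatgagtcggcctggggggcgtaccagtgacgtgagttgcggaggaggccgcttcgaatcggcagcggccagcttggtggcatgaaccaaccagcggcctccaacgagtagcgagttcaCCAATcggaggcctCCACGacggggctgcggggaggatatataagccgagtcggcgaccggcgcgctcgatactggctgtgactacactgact
Hspd1 lies on the minus strand of chromosome 9, head to head with Hspe1. Their starts are 290 bases apart and their windows share 211 bases, so the overlapping pair of heat shock elements in the Hspe1 window, at -65 to -48 from its first base, is also in the Hspd1 window, at -242 to -225. In the Hspa8 window the matches begin at -213 and -55, and the Hspa5 match begins at -43. The remaining matches, shown for comparison with these, were the following.
Dnaja1: GAActTTCcaGAA
Hsph1: TTCtgGAAagTTC
Dnajc3: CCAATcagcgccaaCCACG
They begin at 9 in Dnaja1, where 0 is the first base of the gene, at -36 in Hsph1 and at -133 in Dnajc3.

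Per length of transcript, the leading genes came from all 3 compartments. The mean level over the 16 libraries, in the authors' deposited RPKM (counts scaled by library total and gene length), was 708 for Hspa8, 607 for Hspe1, 325 for Hspd1, 214 for Hspa5, 187 for Dnaja1, the main DnaJ partner of Hspa8, and 132 for Hspa9. The Hspe1 value rests on a listed length of 267 bases, which is shorter than any other here. Among the other DnaJ genes the highest levels were 69.9 RPKM for Dnaja2 and 66.1 RPKM for Dnaja3, which encodes the mitochondrial partner of Hspa9. The stress-inducible Hsp70 gene Hspa1b was low, at 2.37 RPKM. Hspa1b has a near-identical neighbour, Hspa1a, which was not analysed here, and Hspa8, Hspd1 and Hspe1 have processed copies in mammalian genomes, so their counts could be split with copies and are uncertain to that extent. The filter on low counts left 62 of the 66 genes for testing; Hspb3, Dnajc5b, Dnajb7 and Hspa1l, with 58 to 80 counts each over all libraries, were not tested.

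The first comparison asked how the genes differ with age in males. Transcripts of the mitochondrial chaperones were lower in old males, with all 10 of the 10 genes tested past an adjusted p of 0.05 (edgeR's quasi-likelihood test, Benjamini-Hochberg adjusted over all 14390 genes tested) and a median log2 fold change of -0.61. Of the 62 genes of all places, 3 rose and 29 fell, against a background of 25.3% of all genes tested higher and 24.6% lower. By place, 3 rose and 10 fell of 31 in the cytosol or nucleus (median -0.15), 0 rose and 5 fell of 12 in the ER (median -0.12), and 0 rose and 4 fell of 8 in other places (median -0.18). These directions are relative to the median of all genes, which was -0.00278 with TMM factors and 0.32 with library totals alone. The shares of all genes called, here and below, are those of the main fit with TMM factors. Counts in other settings have no such background beside them. With library totals alone, 20 of the 62 were higher and 12 lower. The medians then became 0.18 in the cytosol, 0.21 in the ER and 0.15 in other places, above 0 but below the 0.32 of all genes. The median of the mitochondrial genes was -0.28. Of the 10 mitochondrial genes, 6 were then past the threshold and lower, and the other 4, Dnajc4, Dnajc11, Dnajc15 and Dnajc19, stood at 0.02 to 0.10 and did not pass.

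**Figure D1:**
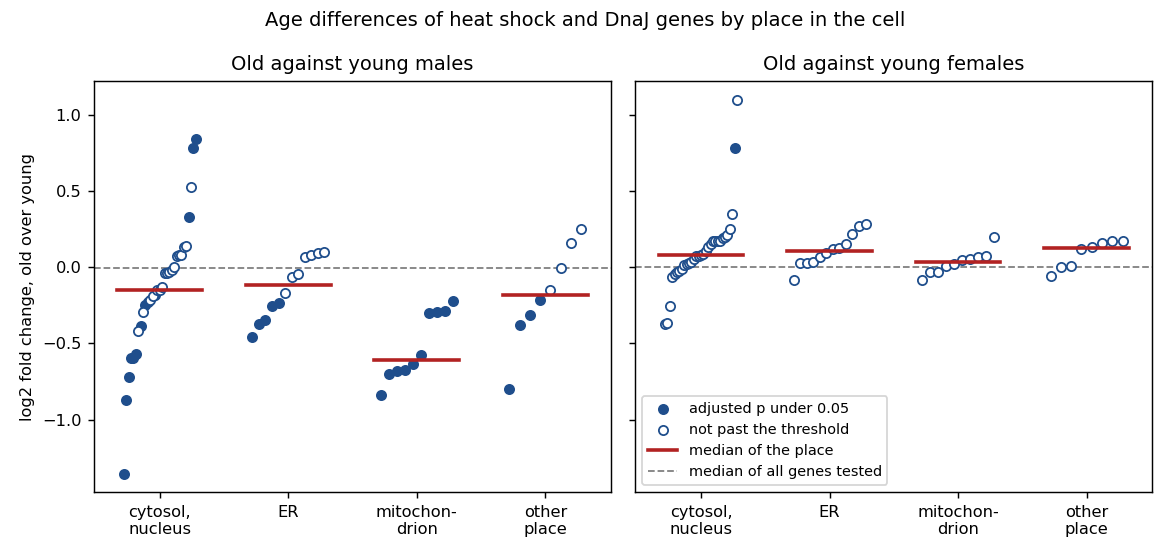
Each point is 1 of 61 tested heat shock or DnaJ genes placed in a compartment, with the log2 fold change of old over young on the vertical axis, males on the left and females on the right; filled points passed an adjusted p of 0.05, red bars are medians and the dashed line is the median of all genes tested. All 10 mitochondrial genes lie below 0 in males (median -0.61) and around 0 in females (median 0.04). With library totals alone the male medians of the cytosol and ER, -0.15 and -0.12, become 0.18 and 0.21. These are above 0 but below the median of all genes in that setting.

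The chaperonin pair fell in step. Hspd1 (ENSRNOG00000014525, chromosome 9) stood at 789.8, 837, 922 and 899 CPM in the 4 young males and at 554, 523, 580.1 and 560.2 CPM in the 4 old males. Hspe1 (ENSRNOG00000051624, chromosome 9) stood at 184, 205, 207 and 197 CPM in young and at 115, 115, 124 and 135 CPM in old males. For both genes every old male library lay below every young male library, and the old male values were also below all 8 female libraries. The differences were a log2 fold change -0.64 with SE 0.0739, adjusted p = 2.98e-06 for Hspd1 and a log2 fold change -0.70 with SE 0.070, adjusted p = 6.81e-07 for Hspe1, which is 1.56-fold and 1.62-fold lower. The ratio of their RPKM values, Hspd1 over Hspe1, kept between 0.491 and 0.578 over all 16 libraries, with 0.523 ± 0.0249 in young and 0.547 ± 0.0341 in old males (SD, n = 4). The ranges of this ratio thus overlapped between the ages while the level of each gene did not.

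The Hsp70 machine of the matrix fell by a similar amount. Hspa9 (ENSRNOG00000019525, chromosome 18) stood at 439, 431, 467 and 448 CPM in young and 305, 266, 291 and 252 CPM in old males (log2 fold change -0.68 with SE 0.0694, adjusted p = 7.97e-07). Its DnaJ partner Dnaja3 (ENSRNOG00000003855, chromosome 10) had the smallest p of the 62 genes, at 165, 164, 165 and 164 CPM in young and 119, 108, 107 and 106 CPM in old males (log2 fold change -0.58 with SE 0.0513, adjusted p = 2.11e-07). In both genes the age groups did not overlap. Grpel1, the nucleotide exchange factor of Hspa9 and not one of the 66 genes, also fell (-0.52, SE 0.0652, adjusted p = 6e-06), while its relative Grpel2 rose (0.48, SE 0.0816, adjusted p = 0.000121). Trap1, the Hsp90 protein of the mitochondrion, fell by 0.26 (adjusted p = 0.00216) with TMM factors but was at 0.06 and not past the threshold with library totals alone.

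The smaller mitochondrial DnaJ genes fell as well. Dnajc28 (ENSRNOG00000002026, chromosome 11) went from 12.8, 11.1, 13.1 and 12.2 CPM in young males to 7.61, 6.52, 7.91 and 5.19 CPM in old males (log2 fold change -0.84 with SE 0.126, adjusted p = 3.99e-05), the largest fold of the 10. Dnajc30, whose product associates with the ATP synthase, stood at 19.2, 19.3, 22.1 and 19.7 CPM in young and 15.1, 13.2, 10.9 and 11.1 CPM in old males (log2 fold change -0.67 with SE 0.0996, adjusted p = 3.43e-05). Both were lower in every old male library than in any young male library. The other 4 had smaller changes: Dnajc4 fell by 0.30, Dnajc11, of the cristae-organising complex, by 0.30, and Dnajc19 and Dnajc15, which act at the inner membrane import motor, by 0.29 and 0.22 on the log2 scale. In Dnajc19 and Dnajc15 the libraries of the age groups overlapped, and with library totals alone all 4 turned above 0 without passing (Dnajc4 0.02, Dnajc11 0.03, Dnajc15 0.10 and Dnajc19 0.04). The Dnajc15 call was also lost without old male replicates 2 or 3, each in turn. Of the 10 genes, 8 had all old male libraries below all young male ones and 0 had all above. Over the 62 genes these counts were 23 and 2, against 22.6% and 23.7% of all genes tested. With the identifier prefix in the fit 8 of the 10 were lower and 0 higher, and without old male replicate 4 all 10 were lower. Among DS libraries alone 7 were lower and 0 higher, but there old males have replicate 4 only, which is assumed to vary like the libraries of the other groups. Proximal tubule markers moved with these genes, with 9 of 12 lower and 2 higher in old males. So did 9 of 13 genes of a mitochondrial list, mostly of proteases and protein import, given below. Their part in the difference was not tested.

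**Figure D2:**
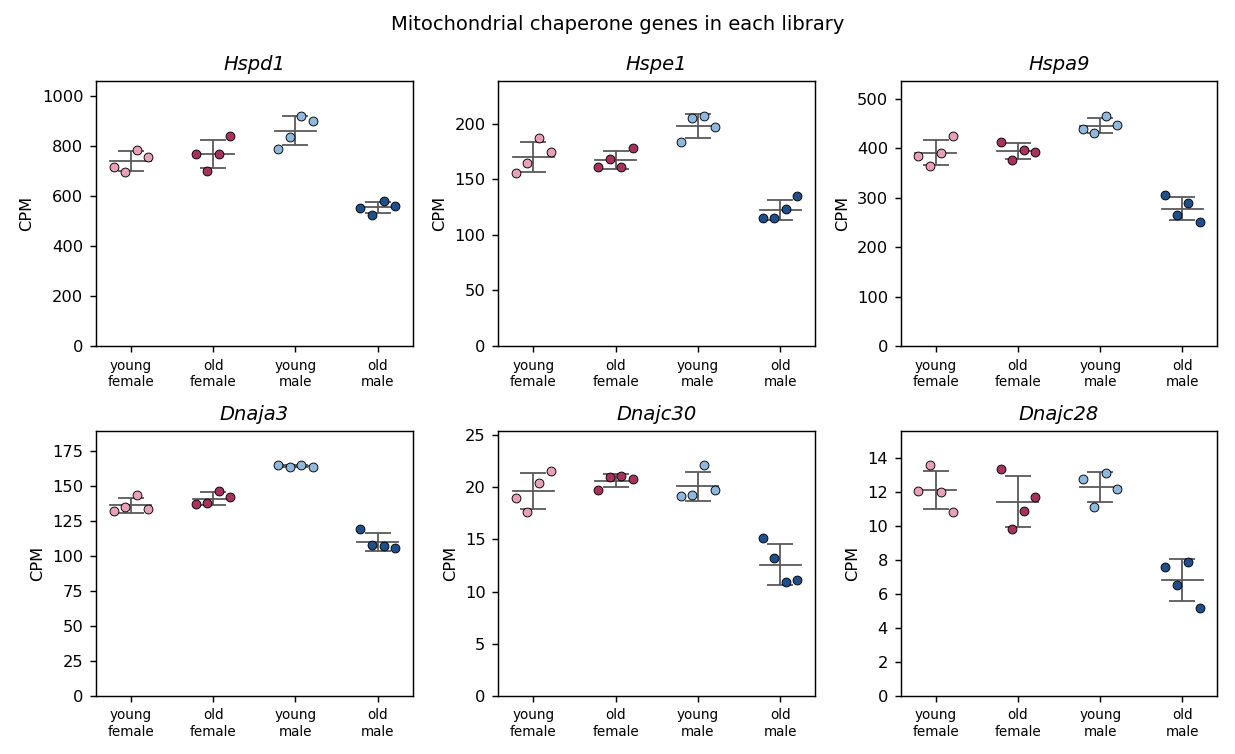
Each panel gives the CPM (vertical axis, from 0) of a mitochondrial chaperone gene in each library by group; points are libraries, and the horizontal line and bars are the mean and SD of 4 libraries. In all 6 panels the 4 old male libraries lie below the 12 others, as for Hspd1 at 523 to 580.1 CPM against 695 to 922 CPM.

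Because all places lie in the same library, the share that each place takes of the summed CPM of the 66 genes does not depend on the scaling of libraries. Mitochondrial genes took 28, 30.1, 29.2 and 24.8% of it in young males and 25.6, 22.7, 18.7 and 22.2% in old males, or 28 ± 2.32% and 22.3 ± 2.82% (SD, n = 4). The ranges overlapped, since old male replicate 1 lay above young male replicate 4, and old male replicate 3 had the lowest share of all 16 libraries. In females the shares were 28.5 ± 2.39% in young and 26.4 ± 1.39% in old. ER genes took 17.1 ± 0.716% in young and 20.5 ± 1.86% in old males, with old male replicate 3 highest at 23.3%, and all 4 old males above all 4 young males. The shares are parts of the same total, so a lower share of one place raises the others. With TMM factors the ER genes summed to 1142 ± 168 CPM in young and 1139 ± 277 CPM in old males. The mitochondrial genes summed to 1856 ± 85.6 and 1211 ± 37.8 CPM. The cytosolic and nuclear genes took 49.5 ± 2.37% and 51.6 ± 1.78%, with overlapping ranges. Set against its counterpart in the ER, Hspa9 had an RPKM ratio to Hspa5 of 0.731 ± 0.129 in young and 0.46 ± 0.162 in old males, lowest in old male replicate 3 at 0.268. The age groups overlapped in this ratio, with old male replicate 1 at 0.661 and young male replicate 4 at 0.549.

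**Figure D3:**
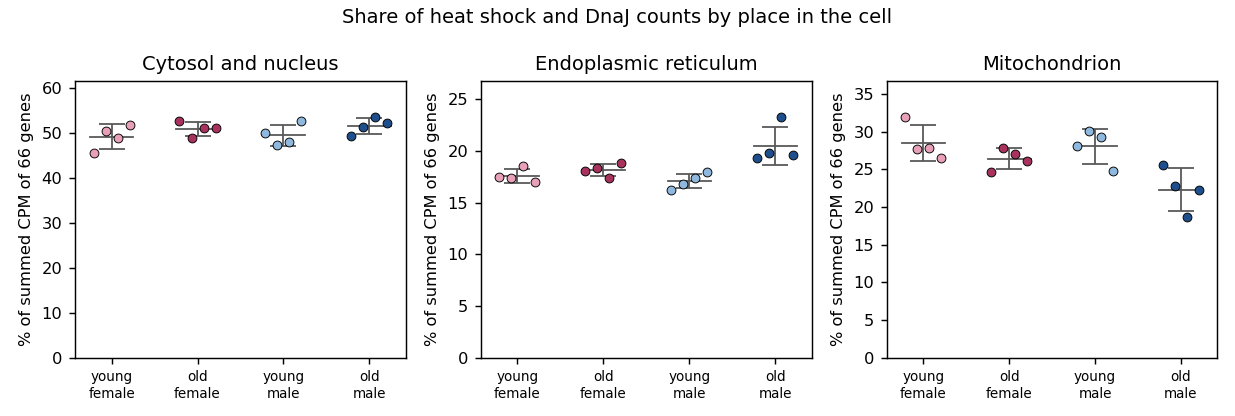
The vertical axis is the percentage of the summed CPM of the 66 genes that the cytosolic and nuclear, ER or mitochondrial genes took in each library, from 0; points are libraries, and lines and bars are the mean and SD of 4. The mitochondrial share was lowest in old males (22.3 ± 2.82%) and the ER share highest (20.5 ± 1.86%). The shares are parts of the same total, so a lower share of one place raises the others.

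In the cytosol Hspa8, Hsph1, Dnajb1, Dnaja1 and Hspa4l did not pass the test in males. Hspa8 (ENSRNOG00000034066, chromosome 8), the constitutive Hsp70, stood at 1390.4, 1122, 1349 and 1943 CPM in young and 955, 1119, 1713 and 1303 CPM in old males (log2 fold change -0.19 with SE 0.22, adjusted p = 0.50). Hsph1 (Hsp110), an exchange factor, was at 119, 99.5, 117 and 188 CPM and 79.1, 87.7, 187 and 118 CPM (-0.15, SE 0.247, adjusted p = 0.645), and Dnajb1 (Hsp40), which helps Hsp70 act on aggregates, at 60.7, 55.1, 64.2 and 92.3 CPM and 56, 57, 87.5 and 64.9 CPM (-0.03, SE 0.168, adjusted p = 0.884). In each of the 3 genes young male replicate 4 and old male replicate 3 were the highest libraries of their groups, and the groups overlapped. Dnaja1 was at 316, 328, 368 and 480.1 CPM in young and 215, 249.5, 400.4 and 249 CPM in old males, with the same libraries highest (-0.42, SE 0.186, adjusted p = 0.0713). Hspa4l, a relative of Hsph1, was also not past the threshold at 20.2 ± 2.04 and 17.4 ± 2.11 CPM (SD, n = 4; -0.21, SE 0.103, adjusted p = 0.0989), although it passed with both of those libraries left out (-0.31, adjusted p = 0.0465).

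For Hspa1b (ENSRNOG00000050647, chromosome 20) a single library set the result. It stood at 1.99, 2.38, 2.02 and 12 CPM in young males and 4.44, 5.96, 10.4 and 4.45 CPM in old males, so that young male replicate 4 was the highest of all 8 male libraries and the remaining 3 young males lay below all 4 old males. With all libraries the difference did not pass (0.53, SE 0.54, adjusted p = 0.441), and without young male replicate 4 it did (1.60, adjusted p = 0.00973). With old male replicate 3 left out as well it still passed (1.24, adjusted p = 0.0351). In females Hspa1b was at 4.7, 3.92, 4.93 and 10.6 CPM in young and 3.53, 3.27, 9.52 and 7.74 CPM in old, with overlapping groups. These fits without named libraries were chosen after their values were seen, apart from the leaving out of each library in turn.

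**Figure D4:**
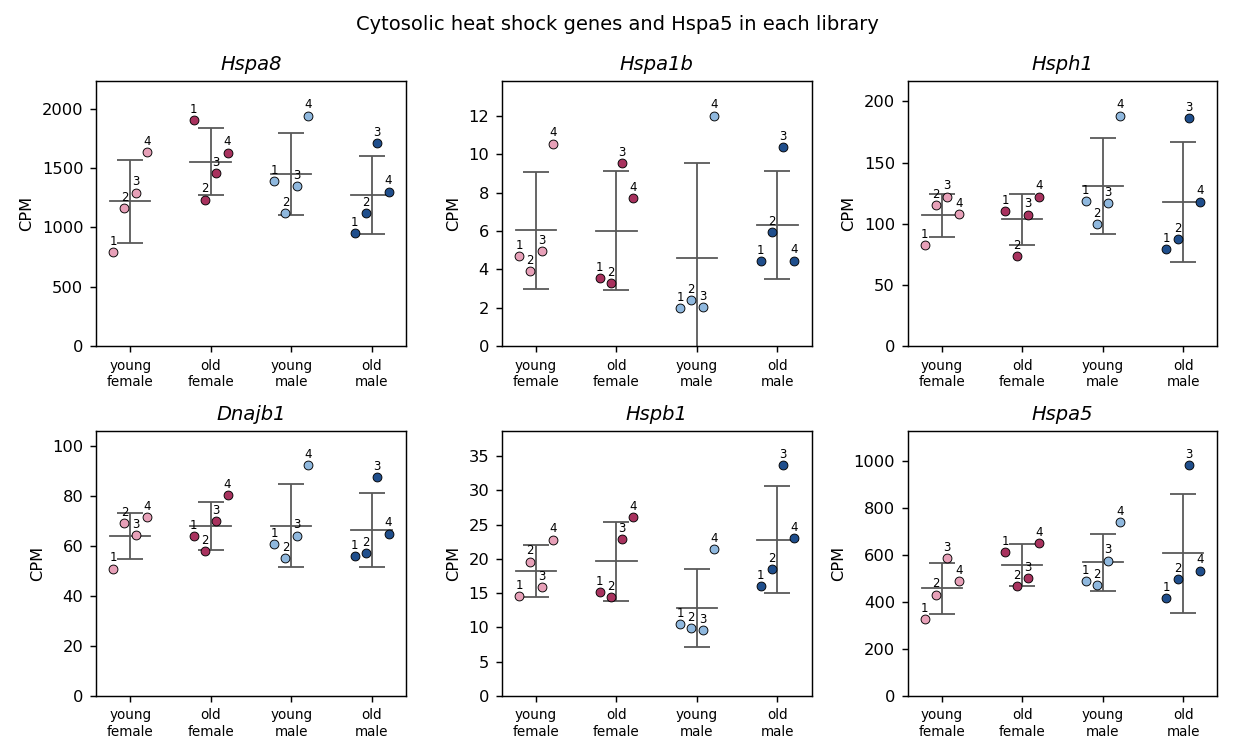
Each panel gives the CPM (vertical axis, from 0) of 5 cytosolic heat shock genes or of Hspa5 in each library by group, with the replicate number beside each point and the mean and SD of 4 libraries as line and bars; an SD bar that would reach below 0 ends at the axis. Young male replicate 4 and old male replicate 3 are the highest of their groups in all 6 panels, as for Hspa1b at 12 and 10.4 CPM.

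Small heat shock proteins (Hspb genes) hold unfolded proteins without ATP, and they moved in both directions in old males. Hspb1 (Hsp27; ENSRNOG00000023546, chromosome 12) rose from 10.5, 9.85, 9.54 and 21.4 to 16, 18.5, 33.7 and 23 CPM (log2 fold change 0.85 with SE 0.284, adjusted p = 0.0203), with young male replicate 4 above old male replicates 1 and 2. The Hspb1 call was lost without old male replicate 3 (0.59, adjusted p = 0.0967), without young male replicates 1, 2 or 3 in turn, and among DS libraries alone. Hspb8, a partner of Bag3 in selective autophagy, rose from 6.46, 6.99, 5.56 and 8.04 to 11.7, 9.5, 12.3 and 13.1 CPM without overlap (log2 fold change 0.78 with SE 0.214, adjusted p = 0.00608). Hspb6 (Hsp20) and Hspb2 are best known from muscle. Hspb6 fell from 24.6, 25.7, 25.5 and 25.8 to 18.9, 15, 14.8 and 12.6 CPM (log2 fold change -0.72 with SE 0.142, adjusted p = 0.000493), and Hspb2 from 9.01, 6.12, 8.92 and 8.37 to 5.8, 3.3, 2.17 and 1.07 CPM (log2 fold change -1.36 with SE 0.283, adjusted p = 0.000823), the largest fold of the 62 genes. No old male library of either gene reached a young male one. In the RefSeq annotation (GRCr8) Hspb2 overlaps its neighbour Cryab, which encodes the small heat shock protein alpha-B-crystallin, and the sources used here do not say whether counting used strand, so reads in the overlap cannot be told apart. Cryab fell in the same libraries, from 303, 305, 381 and 215 to 129.7, 79.7, 68.6 and 23.1 CPM (-1.99, SE 0.318, adjusted p = 7.08e-05), and in both genes old male replicate 1 was the highest and replicate 4, the library with the low thick limb and distal tubule markers, the lowest of the old males. Without it both still passed (Hspb2 -1.15, adjusted p = 0.000765; Cryab -1.70, adjusted p = 3.35e-06).

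Among cytosolic DnaJ genes, Dnajc21, a factor of ribosome maturation, fell from 39.6, 36.9, 40.6 and 45.2 to 28.1, 24.9, 28.1 and 26.4 CPM in old males (log2 fold change -0.59 with SE 0.0738, adjusted p = 5.97e-06). Dnajb2, which delivers ubiquitinated clients to the proteasome, fell from 119, 116, 115 and 124 to 84, 79, 84.7 and 71.5 CPM (log2 fold change -0.57 with SE 0.0763, adjusted p = 1.33e-05). Neither gene overlapped between the ages, and old males did not differ in Dnajc21 past the threshold from old females at 27.5, 25.6, 24.4 and 27.4 CPM (0.03, SE 0.0746, adjusted p = 0.738). Dnaja4 fell by 0.60 (adjusted p = 0.000908), Dnajc12, a helper of aromatic amino acid hydroxylases, by 0.39 (0.00203), and Hspa12a, a distant Hsp70 relative, by 0.87 (0.0018) on the log2 scale. Dnajc7, Dnaja2 and Dnajb6 fell by 0.23, 0.25 and 0.18 with TMM factors, but with library totals alone they stood at 0.10, 0.08 and 0.14 and did not pass. The call of Dnaja2 was also lost without young male replicate 4, and that of Dnajb6 without old male replicate 4 or young male replicates 1 or 3. Dnaja4 and Dnajc12 kept their direction with library totals alone but did not pass. Beside Hspb1 and Hspb8, Dnajb4 was the only cytosolic gene of the 31 that rose (0.33, SE 0.0877, adjusted p = 0.00516). The cytosolic median of -0.15 moved to -0.05 without old male replicate 1 and to -0.06 without old male replicate 2.

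In the ER the core chaperone did not pass the test in males. Hspa5 (ENSRNOG00000018294, chromosome 3) stood at 488, 469, 575 and 738 CPM in young and 417, 496, 981 and 532 CPM in old males (log2 fold change 0.10 with SE 0.236, adjusted p = 0.763), with old male replicate 3 far above the other 3 and young male replicate 4 the highest of its group. Its DnaJ partners Dnajb9 (ERdj4; 43.9 ± 8.72 and 46 ± 10.1 CPM, 0.07, SE 0.145, adjusted p = 0.724) and Dnajb11 (ERdj3; 98.2 ± 9.89 and 93.9 ± 9.47 CPM, -0.06, SE 0.0919, adjusted p = 0.595) did not pass either, and with library totals alone both were higher (0.40 and 0.26). The ER genes that fell were Dnajb12 (-0.34) and Dnajb14 (-0.25), J proteins of the ER membrane that act in degradation, Dnajc16 (-0.46), Dnajc18 (-0.37) and Dnajc3. None of these 5 passed with library totals alone, where Dnajb14 turned to 0.07. The Dnajb14 call was lost in 17 of 20 other settings, among them the leaving out of any of the 8 male libraries. Dnajc3 (p58IPK), a J protein of the lumen, stood at 56.4, 52.1, 63 and 66.4 CPM in young and 47.8, 47.4, 55.7 and 51.3 CPM in old males (log2 fold change -0.24 with SE 0.0824, adjusted p = 0.0256), with overlapping groups. The Dnajc3 call was lost without old male replicates 1 or 2 or young male replicates 3 or 4, each in turn, and turned to 0.09 with library totals alone. The ER median of -0.12 became -0.21 without old male replicate 3 and -0.08 without young male replicate 4.

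Of the genes with other places, Dnajc6 (auxilin), which uncoats clathrin vesicles, fell from 16.5, 17.6, 16.3 and 23.8 to 11, 11.1, 9.38 and 11 CPM in old males (log2 fold change -0.80 with SE 0.157, adjusted p = 0.000487) with no overlap. Dnajc22, a membrane J protein, fell by 0.38 (adjusted p = 0.00566), and Dnajc5 (cysteine string protein), of synaptic and secretory vesicles, by 0.31 (0.0332) on the log2 scale. Dnajc22 did not pass and Dnajc5 turned to 0.01 with library totals alone, and the Dnajc5 call was also lost without old male replicates 2, 3 or 4 or young male replicates 3 or 4. Dnajc13, an endosomal protein, fell by 0.21 (0.0291), a call that was lost without any of old male replicates 1, 2 and 3 or young male replicates 1 and 3 and that turned to 0.11 with library totals alone.

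In females the same comparison of ages passed the test for 1 gene of 62, against a background of 2.54% of all genes tested higher and 3.17% lower. That gene was Hspb8, at 6.07, 4.75, 6.38 and 10.4 CPM in young and 7.85, 14.7, 12 and 13.2 CPM in old females (log2 fold change 0.79 with SE 0.217, adjusted p = 0.0432), with young female replicate 4 above old female replicate 1. The call was lost in 13 of 20 other settings, among them the fits without old female replicates 2, 3 or 4 or young female replicates 1, 2 or 3. The log2 fold change was 0.78 in males and 0.79 in females, and the age-by-sex contrast of Hspb8 did not pass (-0.00, SE 0.307, adjusted p = 0.994). Over the 62 genes, 3 had all old female libraries above all young ones and 1 had all below, against 5.61% and 5.46% of all genes tested. None of the 10 mitochondrial genes passed, and their median was 0.04, with Hspd1 at 717, 695, 785 and 758 CPM in young and 766, 699.8, 769.8 and 838 CPM in old females (0.06, SE 0.0737, adjusted p = 0.724). Hspa9 was at 392 ± 25.9 and 395 ± 15.4 CPM (SD, n = 4; 0.01, SE 0.0691, adjusted p = 0.953). In the ER, Dnajb9 had all 4 old female libraries above the young ones, at 39.3 ± 4.09 and 47.5 ± 3.59 CPM, but did not pass (0.27, SE 0.147, adjusted p = 0.322). Hspb7, a muscle small heat shock protein, had the largest fold in females and did not pass, at 0.545 to 0.940 CPM in young and 0.636 to 2.48 CPM in old (1.10, SE 0.389, adjusted p = 0.113).

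The age-by-sex contrast, the age difference of males minus that of females, tested whether the sexes differed in these changes. It was negative and past the threshold in 22 of the 62 genes and positive in 0, against a background of 19.3% lower and 19.4% higher. The 22 were 9 mitochondrial genes of 10, 7 cytosolic or nuclear of 31, 4 ER of 12 and 2 of 8 in other places. The mitochondrial gene outside them was Dnajc11 (adjusted p = 0.0596), and the calls of Dnajc15 and Dnajc4 were lost in 15 and 20 of 27 other settings. Without old male replicate 4 the mitochondrial count was 8. With library totals alone, where the median of all genes moved to 0.37, 11 were positive and 7 negative, of which the mitochondrial genes gave 0 and 5. The leading values were -0.63, SE 0.0725, adjusted p = 8.04e-06 for Dnaja3, -0.84, SE 0.106, adjusted p = 1.88e-05 for Dnajc21, -0.69, SE 0.0979, adjusted p = 4.94e-05 for Hspa9 and -0.74, SE 0.108, adjusted p = 6.52e-05 for Dnajb2. Hspe1 (-0.67, SE 0.0987, adjusted p = 6.97e-05) and Hspd1 (-0.69, SE 0.104, adjusted p = 8.4e-05) followed. The contrast did not pass for Hspb1 (0.74, SE 0.40, adjusted p = 0.16) or Hspa1b (0.54, SE 0.764, adjusted p = 0.612). Both passed without young male replicate 4 (Hspb1 1.09, adjusted p = 0.023, and Hspa1b 1.61, adjusted p = 0.0464). That library held the highest young male value of both genes and was singled out for it. The adjusted p-values without it are therefore not independent of that choice.

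Between the sexes, young males stood above young females in 18 of the 62 genes and below in 1, against a background of 16% higher and 15.7% lower. All young male libraries lay above all young female ones in 23 genes and below in 4, against 16.4% and 14.7% of all genes tested. Dnaja4 (ENSRNOG00000012106, chromosome 8), a relative of Dnaja1, had the largest fold, at 22.4, 26.5, 27.9 and 22.1 CPM in young females and 59.1, 64.4, 68 and 55.4 CPM in young males (log2 fold change 1.32 with SE 0.132, adjusted p = 1.2e-06). Dnajc12 (ENSRNOG00000051960, chromosome 20) stood at 18.7, 19.4, 20.2 and 19.8 and 33.8, 35.9, 32.6 and 31.8 CPM (log2 fold change 0.78 with SE 0.0936, adjusted p = 8.51e-06), and Dnajc21 (ENSRNOG00000017876, chromosome 2) at 20.5, 20.9, 23.7 and 23.2 and 39.6, 36.9, 40.6 and 45.2 CPM (log2 fold change 0.88 with SE 0.0759, adjusted p = 2.61e-07). In each of the 3 genes every young male library exceeded every young female one. Dnajc1, an ER membrane J protein, stood at 23.1, 28.7, 25.3 and 25.5 CPM in young females and 31.8, 36, 36.5 and 36.6 CPM in young males (0.46 on the log2 scale), and Dnajc22 at 47.7, 49.3, 62.8 and 66.6 and 76.5, 82.3, 89.2 and 76.1 CPM (0.52). Dnajc13 stood at 133, 125, 145 and 149 and 189, 179, 185 and 185 CPM (0.42). These genes, too, did not overlap between the sexes. Among mitochondrial genes Dnajc11 stood at 37.2, 36.9, 45.7 and 37.2 and 49.9, 49.7, 52.9 and 56.7 CPM (0.41), and Dnaja3 was at 132, 135, 144 and 134 CPM in young females, below the young males given above (0.27). The gene that was lower was Dnajc10 (ERdj5), an ER disulfide reductase (-0.22, SE 0.0744, adjusted p = 0.0292), a call that was lost without young female replicate 4 or young male replicates 1, 2 or 3.

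Mitochondrial genes gave 5 of the 18, with Hspd1 (0.22, SE 0.0737, adjusted p = 0.0293), Hspe1 (0.22, SE 0.0698, adjusted p = 0.0244) and Hspa9 (0.19, SE 0.0692, adjusted p = 0.0481) beside Dnaja3 and Dnajc11. The calls of these 3 did not hold over single libraries: each was lost without young female replicates 1 or 2 or young male replicate 3, that of Hspd1 also without young male replicate 4, that of Hspe1 without young male replicate 2, and that of Hspa9 without young female replicate 3 or any of the other young males. With library totals alone 9 of the 62 were higher and 8 lower in young males, among them 1 mitochondrial gene in each direction. The inner medulla genes moved with this comparison, with 9 of 12 tested lower in young males and 0 higher. With their mean log2 CPM as a covariate 3 of the 62 genes were higher and 0 lower (Dnaja4 1.20, adjusted p = 0.00688, Dnajc12 0.72, adjusted p = 0.0209, and Dnajc21 0.90, adjusted p = 0.00103). This score did not overlap between young females and young males, so that fit can hardly separate it from sex. The share of all genes called in that fit is not given here, so its count has no background beside it.

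In old rats 6 of the 62 genes were higher and 17 lower in males than in females, against a background of 25.5% higher and 23.8% lower. All old male libraries lay above all old female ones in 4 genes and below in 16, against 23.8% and 20.8% of all genes tested. Of the 10 mitochondrial genes 9 were lower and 0 higher, with a median of -0.46. Hspa9 was at 413, 376, 398 and 393 CPM in old females and 305, 266, 291 and 252 CPM in old males (log2 fold change -0.50 with SE 0.0693, adjusted p = 1.5e-05), and Dnajb2 at 127, 114, 116 and 129.9 and 84, 79, 84.7 and 71.5 CPM (log2 fold change -0.61 with SE 0.0763, adjusted p = 6.15e-06). Neither gene overlapped between the sexes. Dnaja3 was at 137, 138, 147 and 143 CPM in old females (-0.36 on the log2 scale in males against females), Dnajc30 at 19.7, 21, 21.1 and 20.8 CPM (-0.71) and Hspe1 at 161, 169, 161 and 178 CPM (-0.45). Hspb6 was at 23.3, 33.3, 28.6 and 36.3 CPM (-0.98) and Dnajc6 at 28.2, 18.7, 20.9 and 19.8 CPM (-1.04). In these 5 genes and in Hspd1 (-0.47) every old male lay below every old female. Hspb2 was lower by the largest amount, at 7.85, 8.65, 9.52 and 8.28 CPM in old females (log2 fold change -1.43 with SE 0.282, adjusted p = 0.000469).

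The genes higher in old males were Dnaja4 (0.65), Dnajb5 (0.67), Dnajb3 (0.62), Dnajc27 (0.50), Hspbap1 (0.78) and Dnajc13 (0.20), and all 6 were also among the 18 higher in young males. The old and young comparisons of the sexes use different libraries. How many of all genes tested were higher in males at both ages is not given here, so this overlap has no background beside it. Dnaja4 in old males was at 34.2, 47.3, 49.7 and 31.2 CPM, between the young males and the old females at 26.4, 24.8, 27.5 and 25.1 CPM. Dnajb3 overlaps the Ugt1a gene cluster in the RefSeq annotation, so its reads are uncertain, and its call in the old was lost without old female replicate 1 and in the young in 10 of 20 other settings. The Dnajc27 call in the old was lost without old male replicate 2. The Dnajc13 call was lost in 12 of 20 other settings, among them the fits without old female replicates 2, 3 or 4 or old male replicates 2, 3 or 4. With library totals alone 18 of the 62 were higher and 11 lower in old males, and among the mitochondrial genes 1 was higher and 7 lower. Among DS libraries alone, with 1 old male and 2 old females, 2 of 63 were higher and 12 lower.

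**Figure D5:**
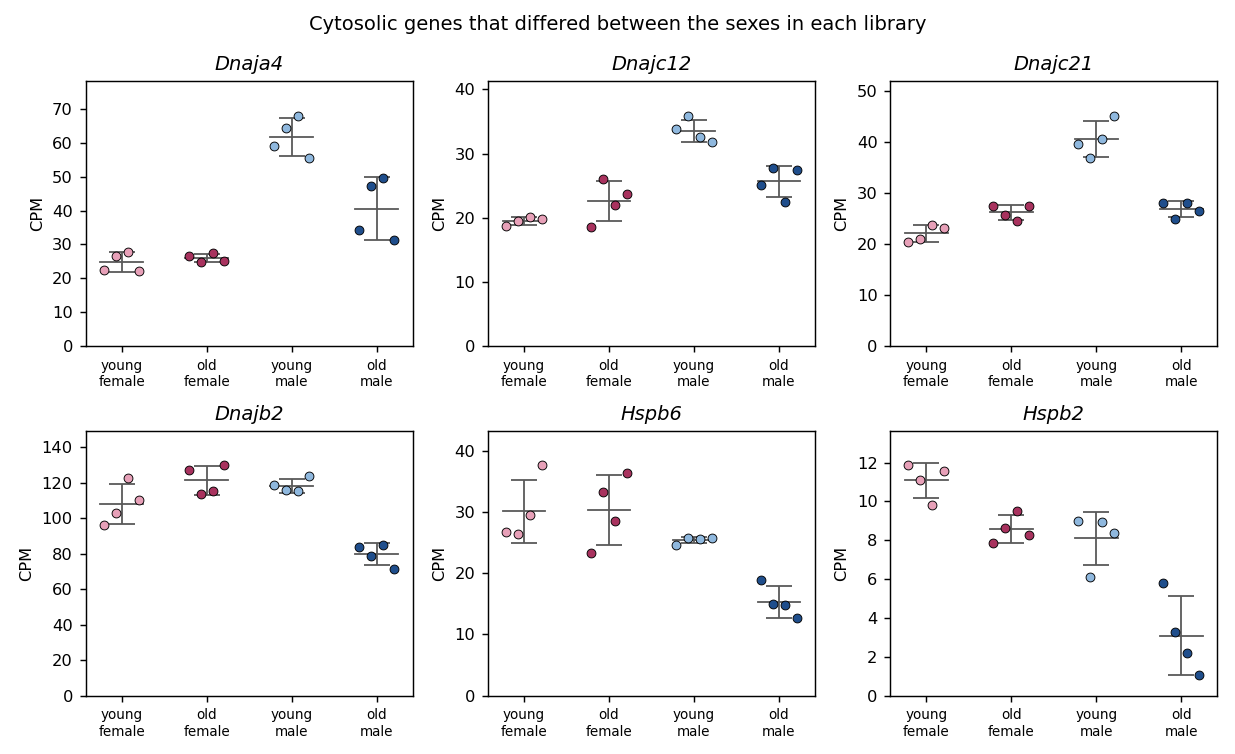
Each panel gives the CPM (vertical axis, from 0) of a cytosolic DnaJ or small heat shock gene in each library by group; points are libraries, and lines and bars are the mean and SD of 4. Dnaja4, Dnajc12 and Dnajc21 are highest in young males (61.7 ± 5.6 CPM for Dnaja4), while Dnajb2, Hspb6 and Hspb2 are lowest in old males (79.8 ± 6.1 CPM for Dnajb2).

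In the authors' deposited lists of genes past a log2 fold change of 1 and a false discovery rate of 0.05, 4 of the 66 genes appear. The authors' deposited table for young males against young females lists 1002 of the 32623 genes, among them Dnaja4 (log2 fold change 1.31). The authors' deposited table for old males against old females lists 2019 genes, among them Hspb2 (-1.47), Hspb7 (-1.08) and Dnajc6 (-1.06). The authors' deposited table of young over old males lists 1974 genes, among them Hspb2 (1.37), and that of females lists 291 genes and 0 of the 66.

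Other chaperone systems were read from lists taken from general knowledge, and their counts stand against the background given above, 25.3% of all genes tested higher and 24.6% lower in old males and 2.54% and 3.17% in old females. The Hsp90 genes Hsp90ab1, Hsp90aa1 and Hsp90b1 did not pass in either sex with age (0.12, 0.28 and 0.13 in males), which leaves Trap1 as the 1 of 4 that fell. Hsp90aa1 was counted at a low level, with group means of 2.24 to 3.07 CPM against 1166 to 1529 CPM for Hsp90ab1. Of 10 Hsp90 cochaperones, St13 fell in old males (-0.36, SE 0.0922, adjusted p = 0.00382) and the ubiquitin ligase gene Stub1 rose (0.18, SE 0.0649, adjusted p = 0.0315). St13 was at -0.04 with library totals alone, and the Stub1 call was lost without old male replicates 2 or 4 or young male replicates 2 or 3. Of 9 exchange factors tested, Grpel2 rose, and Grpel1, Sil1, the exchange factor of Hspa5 (-0.57, SE 0.0842, adjusted p = 3.26e-05), and Bag3 (-0.29, SE 0.101, adjusted p = 0.0237) fell. Bag3 was at 0.03 with library totals alone, and its call was lost without old male replicate 4 or young male replicate 4. In females Bag3 rose (0.41, SE 0.105, adjusted p = 0.0331) and Bag4 fell (-0.71, SE 0.16, adjusted p = 0.0167). Both calls were lost when the fit held the inner medulla score, among DS libraries alone, and without old female replicate 4 or young female replicate 1, and that of Bag3 also without old female replicate 2 or young female replicate 2. Hsf1, which encodes the main heat shock factor, did not pass in males (0.17, SE 0.111, adjusted p = 0.205) or females (-0.09, SE 0.112, adjusted p = 0.716), and Hsf2 fell in males (-0.25, SE 0.0984, adjusted p = 0.043) but was at 0.08 with library totals alone, and its call was lost in 12 of 20 other settings, among them the fits without old male replicates 1, 2 or 3 or young male replicates 1, 2 or 3.

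The cytosolic chaperonin TRiC and prefoldin had 5 of 13 genes lower and 0 higher in old males (median -0.13), led by Cct6a (-0.31, SE 0.0629, adjusted p = 0.000578). The values of Cct6a, Cct2, Pfdn5 and Pfdn2 turned above 0 with library totals alone, and the calls of Cct2, Pfdn5 and Pfdn2 were lost in 11, 10 and 12 of 20 other settings. In females Pfdn5 was the only one past the threshold, and it rose (0.27, SE 0.0686, adjusted p = 0.0297), a call lost in 10 of 20 other settings, among them the fits without old female replicates 1, 2 or 4 or young female replicates 1, 2 or 3. A list of 13 mitochondrial genes, mostly of proteases and import but with Atf5 and Hscb, had 1 higher and 9 lower in old males (median -0.34). Among those lower were the disaggregase gene Clpb (-0.59, SE 0.0673, adjusted p = 2.5e-06) and the protease genes Lonp1 (-0.38, SE 0.0507, adjusted p = 1.32e-05) and Clpp (-0.37, SE 0.0646, adjusted p = 0.000173). The import receptor gene Tomm20 was lower too (-0.41, SE 0.068, adjusted p = 0.00010). Lonp1, Clpp and Tomm20 did not pass with library totals alone, at -0.05, -0.04 and -0.09. In females 0 of these 13 passed.

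ER folding and stress genes had 6 of 25 higher and 3 lower in old males, a share of higher genes near the background of 25.3%. The 2 with the smallest p among those higher were Asns (1.21, SE 0.0926, adjusted p = 5.21e-08) and Trib3 (2.07, SE 0.292, adjusted p = 2.18e-05), both targets of the stress factor Atf4, and those lower included Sec63, a J protein gene of the translocon (-0.41, SE 0.0566, adjusted p = 1.65e-05), and P4hb, a disulfide isomerase gene (-0.46, SE 0.0782, adjusted p = 0.000139). Sec63 and P4hb did not pass with library totals alone, at -0.09 and -0.13. In females 0 of the 25 passed, and the 2 with the smallest p were Calr and Chac1 (adjusted p = 0.223 and 0.31). Immediate early genes, which respond to handling and stress, had 13 of 18 higher and 0 lower in old males (Atf3 2.65, SE 0.418, adjusted p = 6.32e-05) and 1 of 18, Ier3, higher in old females (0.73, SE 0.169, adjusted p = 0.0197), a call lost without old female replicate 2 or young female replicate 1. Of the osmotic response genes, in which Cryab was placed, Akr1b1 (aldose reductase) rose in old males (1.07, SE 0.417, adjusted p = 0.0421), a call lost in 11 of 20 other settings, among them the leaving out of any of the 8 male libraries. In old females Slc6a12, Nfat5 and Slc6a6 fell (Slc6a12 -2.58, SE 0.453, adjusted p = 0.00468). Of 12 inner medulla genes tested, 3 were lower and 0 higher in old females (median -1.09), and with their score as a covariate, as among DS libraries alone, none of the 3 osmotic genes passed. The Slc6a6 call was also lost without old female replicates 2 or 4 or young female replicates 1, 2 or 4. All 11 macrophage markers and all 13 lymphocyte markers tested rose in old males, and their part in the values above was not tested.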

How the data were processed

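RNA from rat kidney cortex was measured by RNA sequencing in 16 libraries, after a stranded mRNA library kit per the labels' protocols. Per the submitters' processing notes, build Rnor_6.0 and edgeR 3.8.6 were used, with no role stated; which aligner and counter were run, and whether counting used strand, is not given in the sources used here. The authors deposited raw counts per gene for 32623 genes, which were used as deposited, and RPKM values, which equal the count scaled by the library total and the listed length plus 1 (largest relative difference 3.29e-14). Per the file headers, the authors' deposited pairwise lists give log2 fold changes, each with a false discovery rate (an adjusted p-value).

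Groups come from the sample titles. Genes were kept with filterByExpr (14390, holding 99.93% of counts; 18233 not tested). Counts were scaled with TMM factors and fitted with edgeR 4.0.16 (R 4.3.3; quasi-likelihood, two-sided) in 1 model of group means over all 16 libraries, whose biological coefficient of variation was 0.13, with Benjamini-Hochberg adjustment and a threshold of 0.05. CPM use the same factors. The script was tested on simulated counts. No 2 libraries of a group agreed within sampling noise (chi-square per degree of freedom of 6.28 or more), so none was counted as a copy.

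The members, lists and places were chosen with earlier results of these data known, so no test over a list was made. Values in every library are given for Hspa8, Hspa1b, Hspb1, Dnajb1, Hsph1, Hspa4l, Hspa5, Dnajb9, Dnajb11, Dnajc3, Hspa9, Hspd1 and Hspe1 (as mean ± SD for some) and for up to 8 genes with the smallest p in each comparison; other genes named were chosen after their values were seen. Of the other lists, up to 4 genes with the smallest p are named per age comparison. Hspa1a and Hspg2, also on that list, were not used here. Alternatives were RLE factors, library totals, DESeq2 1.42.0, limma-voom (limma 3.58.1), no filter, a CPM minimum of 1 in 4 libraries, fits of the compared groups by themselves, a replicate block, a covariate (the prefix of the identifiers, or the inner medulla score), DS libraries alone, each library left out in turn, and, chosen after seeing the data, young male replicate 4 and old male replicate 3 both left out.

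Promoters are RefSeq windows (GRCr8), matched by symbol; in the RefSeq annotation 17 of 65 matched members overlap another protein-coding gene, Hspd1 with Hspe1, Hspb6, Dnajc28, Dnajc19 and Dnajc7 among them, and their counts are uncertain where strand was not used.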

Additional observations from a re-analysis of the deposited data

Results flagged for a closer look

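Among 108 groups of 4 libraries (27 named genes in 4 groups), 7 held a library far from the other 3 by Dixon's criterion, where chance flags about 1 group in 20. Hspa1b was at 10.6 CPM in young female replicate 4, against 3.92 to 4.93 in the other young females, and at 12.0 CPM in young male replicate 4, against 1.99 to 2.38. Young male replicate 4 also stood apart in Hspb1 (21.4 CPM against 9.54 to 10.5) and in Dnajc6 (23.8 CPM against 16.3 to 17.6). Without that library Hspb1 was lower in young males than in young females (-0.87, adjusted p = 0.0225), and so was Hspa1b (-1.51, adjusted p = 0.0253). For Hspa1b that fit kept young female replicate 4 at 10.6 CPM, and no fit left out both libraries. Young male replicate 4 was flagged on these same values, so these adjusted p-values are not independent of that choice. Dnajc6 was at 9.38 CPM in old male replicate 3 (others 11.0 to 11.1), Dnajc1 at 31.8 CPM in young male replicate 1 (others 36.0 to 36.6), and Dnajc11 at 45.7 CPM in young female replicate 3 (others 36.9 to 37.2).

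The age difference was lower in males than in females, by edgeR's age-by-sex contrast, in 15 of the 27 named genes, 8 of which were named for having the smallest p in this same contrast. Over all 62 genes tested the count was 22, against 19.3% of all genes. On the log2 scale the contrast was -0.63 for Dnaja3, -0.69 for both Hspa9 and Hspd1, -0.67 for Hspe1, -0.75 for Dnajc30 and -0.76 for Dnajc28 among mitochondrial genes. In the cytosol it was -0.84 for Dnajc21, -0.74 for both Dnajb2 and Hspb6, -0.60 for Dnajc12 and -0.67 for Dnaja4. It was -0.36 for Dnajc3 and -0.33 for Dnajc1 in the ER, and -0.56 for Dnajc22 and -0.81 for Dnajc6 elsewhere. The Dnajc1 call was lost without young female replicate 1, and that of Dnajc3 without old male replicate 2.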

How the results depend on the processing

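The counts compared here take no account of direction. With library totals alone, more genes were higher than lower for age in males, sex in the old and the age-by-sex contrast. In the main fit more were lower in each of these, as given above. The count of genes past the threshold kept within 1.5 times its value in 11 of 12 other settings for age in males, sex in the young and sex in the old, and in 11 of 11 for the age-by-sex contrast, leaving out single libraries aside. Those that moved further were DS libraries alone, with 21 genes for age in males and 14 for sex in the old, and the inner medulla score as a covariate, with 3 for sex in the young. For age in females the 1 gene became 0 with library totals, limma-voom, only the groups compared, the prefix, the inner medulla score, DS libraries alone and the 2 libraries named below left out; under the main test 0 other genes passed. Leaving out single libraries gave 27 to 30 genes (males), 0 to 2 (females), 13 to 20 (young), 20 to 22 (old) and 18 to 24 (age-by-sex). It gave medians in males of -0.208 to -0.0501 (cytosol), -0.21 to -0.08 (ER) and -0.63 to -0.58 (mitochondrion). With young male replicate 4 and old male replicate 3 both left out, 29 genes passed in males (5 higher, 24 lower) and 0 in females.

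With library totals alone the medians in males were 0.18 (cytosol), 0.21 (ER) and -0.28 (mitochondrion). Called genes that turned there, all to values not past the threshold, were, among all members and the genes named from other lists, for age in males Dnajc3 (0.0899), Dnajc11 (0.0304), Dnajc13 (0.112), Trap1 (0.0583), Bag3 (0.0341), Hsf2 (0.0769), Dnaja2 (0.0803), Dnajb14 (0.0746), Dnajb6 (0.143), Dnajc15 (0.104), Dnajc19 (0.0398), Dnajc4 (0.0235), Dnajc5 (0.0128), Dnajc7 (0.0964), Cct6a (0.0134), Cct2 (0.139), Pfdn5 (0.142), Pfdn2 (0.127) and Spg7 (0.0504), and in the age-by-sex contrast Dnajc3 (0.0219), Dnajc1 (0.0602), Dnaja2 (0.084), Dnajc15 (0.0923), Dnajc4 (0.0592) and Dnajc7 (0.0711). Dnajc15 turned to 0.0063 for sex in the old and Dnajc7 to -0.0051 for sex in the young. Yme1l1 turned to 0.132 among DS libraries alone. With library totals the median of all genes was also higher for age in males and the age-by-sex contrast, as given above. A cause in single genes was not tested. Of the named calls, 11 of 18 were kept in every setting for age in males, 0 of 1 in females, 3 of 13 and 8 of 11 for sex in the young and old, and 7 of 15 for the age-by-sex contrast.

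Same-numbered replicates correlated at -0.13 to 0.19 and the labels do not tie them, so numbers do not pair samples. The replicate block gave 32, 1, 22, 25 and 26 genes past the threshold for age in males, age in females, sex in the young, sex in the old and the age-by-sex contrast, with compartment medians in males of -0.18 (cytosol), -0.12 (ER) and -0.61 (mitochondrion).

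Genes with few counts, such as Hspb7 with 264 over all libraries, are measured with less precision than Hspa8 with 374945. Age is partly tied to the identifier prefix, and precision is limited by the 4 libraries of a group.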
